A study of Mus musculus with 12 samples.

Results

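The hemidesmosome and basal integrin genes were 7 of the 23337 gene symbols listed in both deposited count tables: Itga6, Itgb4, Itga3, Itgb1, Lama3, Lamb3 and Dst. They were taken by symbol, and were chosen with earlier results of these data known. All 7 had enough counts to be tested at both times, with 46 to 7912 counts in any one library. The libraries came from peeled urothelium, the epithelium that lines the urinary tract, stripped from the tissue below it, and the study asked what follows in this epithelium when Stag2 is lost. Stag2 encodes one of the subunits of cohesin, which shapes chromatin loops. Mice were Stag2 wild type (WT) or Stag2 knockout (KO) and were taken 1 week or 1 month after TMX (read here as tamoxifen) was started, which gave 4 groups of 3 libraries. Every animal, WT included, was given the TMX diet for a week, so all groups share that treatment. Sex, age, strain, the allele and any Cre driver are not given in the sources used here, and neither is the share of cells in which the knockout took place.

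Hemidesmosomes are the rivets that hold the basal cells of an epithelium to the basement membrane. At their core the integrin made of the Itga6 and Itgb4 subunits grips a laminin outside the cell, which holds the Lama3 and Lamb3 chains, and is tied inside the cell to keratin filaments through plectin (Plec) and the epithelial form of dystonin (Dst). The same laminin is bound by a second basal integrin, the pair of Itga3 and Itgb1, which connects to actin rather than keratin, and Itgb1 also pairs with many other alpha subunits in most cell types. In urothelium hemidesmosomes belong to the basal layer, which rests on the basement membrane and renews the cells above it.

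Of these genes, Itga3, Itgb1 and Lamb3 had positive KO-minus-WT differences at 1 month, and the 250 bases before their first listed RefSeq start (GRCm38.p6) are shown because these 3 genes lie on the same side of 0. Capitals mark the GC box GGGCGG, a motif bound by Sp-family factors, and each sequence reads 5′ to 3′ on the strand of its gene.
Itga3, minus strand, chr11:95076715-95076964: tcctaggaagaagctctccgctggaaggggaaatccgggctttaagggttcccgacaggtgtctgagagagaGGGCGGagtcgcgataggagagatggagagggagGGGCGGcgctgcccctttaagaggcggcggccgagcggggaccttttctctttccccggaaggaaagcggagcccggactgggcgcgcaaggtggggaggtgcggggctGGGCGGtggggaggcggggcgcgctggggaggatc
Itgb1, plus strand, chr8:128685404-128685653: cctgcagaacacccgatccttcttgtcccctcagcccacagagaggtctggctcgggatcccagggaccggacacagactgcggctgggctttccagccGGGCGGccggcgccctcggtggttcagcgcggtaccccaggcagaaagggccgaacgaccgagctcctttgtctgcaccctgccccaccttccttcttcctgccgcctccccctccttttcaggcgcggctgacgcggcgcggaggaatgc
Lamb3, plus strand, chr1:193301744-193301993: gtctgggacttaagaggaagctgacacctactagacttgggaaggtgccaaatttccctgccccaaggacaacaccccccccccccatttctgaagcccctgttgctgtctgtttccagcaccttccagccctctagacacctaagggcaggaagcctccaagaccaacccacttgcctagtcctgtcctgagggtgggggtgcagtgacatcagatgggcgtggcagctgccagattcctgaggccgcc
The Itga3 window held 3 GC boxes, the Itgb1 window 1 and the Lamb3 window 0, against 32.7% of 32851 RefSeq promoter windows of this length with at least 1. The AP-1 site TGANTCA (6.75% of windows), the E2F site TTTNGCGC (1.13%) and the CHR element TTTGAA (16%) were searched on both strands. None of them was in the 7 windows examined, which belonged to 4 members, these 3 and Dst. Windows of Itga6, Itgb4 and Lama3 were not examined, so nothing is said here about motifs in them. A match describes letters in a window and is not a binding site.

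In the GENCODE M21 annotation of GRCm38 the members lay on 5 chromosomes: Itga6 at chr2:71745616-71858416, Itgb4 at chr11:115974709-116008412, Itga3 at chr11:95044474-95076801, Itgb1 at chr8:128685654-128733200, Lama3 at chr18:12333819-12583013, Lamb3 at chr1:193207699-193343878 and Dst at chr1:33908225-34308661. Itga3 is on the minus strand and the other 6 are on the plus strand. Itga6, Lama3, Lamb3 and Dst overlap small genes on their own strand, and reads there could be split by the counting. The library kit reads the 3′ ends of transcripts, and 5 of the 14 coding transcripts of Dst end more than 50 kb before its furthest end, so its single count sums isoforms with different ends.

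Total counts per library were 5580961 to 9497088, and 3 counts corresponded to 0.305 to 0.632 CPM, the count of a gene relative to the scaled total of its library. Such a floor covers counting error alone. Levels below are CPM with library totals scaled by the trimmed mean of M values (TMM) over the 12 libraries. Stag2, the targeted gene, stood at 118, 106 and 151 CPM in WT and 72.3, 59.6 and 67.2 CPM in KO at 1 week, and at 63.4, 64.7 and 45.2 CPM (WT) and 39.4, 37.6 and 19.3 CPM (KO) at 1 month. Every KO library was below every WT library of its time, and the transcript was detected in all of them. KO replicate 3 of 1 week stood apart, with Spearman correlations of 0.746 to 0.842 with the other libraries of that time. Xist, the RNA of the inactive X chromosome, had 6392 to 10406 counts in KO and at most 13 in WT at 1 week, and 7764 counts in KO replicate 3 of 1 month. The Y-linked genes Ddx3y, Uty, Eif2s3y and Kdm5d together had 0 to 4 counts in these 4 libraries and at least 632 in the other 8, so genotype and sex cannot be told apart at 1 week or within sequencing batch 3 at 1 month. No member lies on a sex chromosome, and the part of sex in their levels was not tested. The fit of 1 week gave 44.4% as its biological coefficient of variation, and the fit of 1 month 24.2%. Only the latter had a batch term, so these values are not directly comparable. Pairs of replicates were also compared by chi-square per degree of freedom. Between WT replicates it was 8.59 to 39.0 at 1 week and 24.3 to 95.7 at 1 month. Between KO replicates it was 55.8 to 185 at 1 week and 22.9 to 57.3 at 1 month. The pairs with KO replicate 3 of 1 week had 128 and 185. Each title carries a number of its own, but the labels do not state that these number animals, so p-values measure the spread between these libraries, which may be technical.

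KO was compared with WT at each time to ask whether the anchoring genes of the basal layer differ when Stag2 is lost. Itga3 was higher in every KO library than in every WT library at both times. Lamb3 was so at 1 month, when its mean was 1.64-fold that of WT in the fit. None of the 7 passed the test. At 1 week 0 of 7 had an adjusted p under 0.05 in edgeR, 1 had an unadjusted p under 0.05 (Itga3), and DESeq2 called 0. Over all genes edgeR called 0.0627% and DESeq2 7.5% at that time, and 15.5% had an unadjusted p under 0.05 in edgeR. At 1 month edgeR again called 0 of 7 against 2.22% of all genes, with 2 at an unadjusted p under 0.05 (Itgb1 and Lamb3) where 21.5% of all genes had one, and DESeq2 called 0 against 6.43%. KO lay above WT without overlap for 1 of 7 members at 1 week, where 13.3% of all genes did, and for 2 of 7 at 1 month, where 6.42% did. With DESeq2's size factors in place of TMM, Itgb1 was also without overlap at 1 week, which made 2 of 7 beside 13.7% of all genes. No member lay below without overlap, as did 13.4% and 6.71% of all genes. The median log2 fold change of the 7 was 0.54 at 1 week and -0.28 at 1 month, beside 0.02 and -0.01 over all genes tested. Without KO replicate 3 of 1 week the median at 1 week was 0.08, beside -0.03 over all genes.

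**Figure D1:**
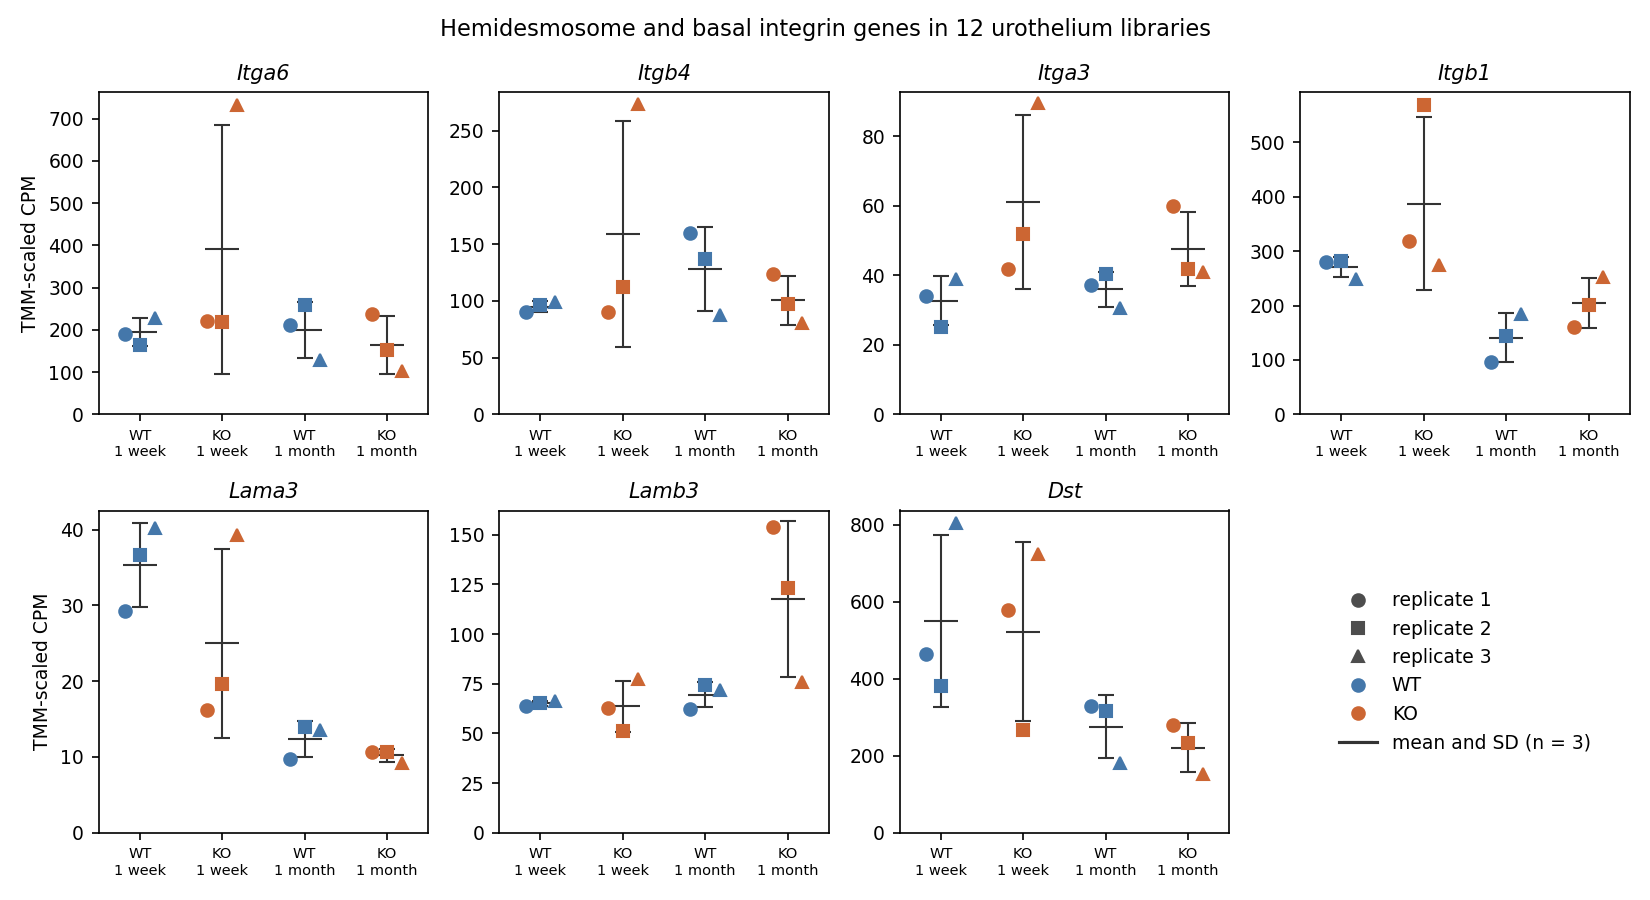
TMM-scaled CPM (y axis, from 0) of the 7 genes in the 12 libraries, by group (x axis). Symbols give the replicate, colours the genotype, and bars the mean and SD of 3 libraries. The Itga6 and Itgb4 panels show a single high point, KO replicate 3 of 1 week, at 731 and 273 CPM, and the Lamb3 panel shows KO replicates 1 and 2 of 1 month above all other libraries.

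Itga6 and Itgb4 encode the alpha and beta subunits of the hemidesmosome integrin. Itga6 had 191, 165 and 229 CPM in WT replicates 1, 2 and 3 at 1 week and 221, 219 and 731 CPM in KO. KO replicate 3 was more than 3 times any other library of that time, while the other KO libraries fell within the WT range. Its log2 fold change was 1.02 (SE 0.51, adjusted p 0.387 in edgeR), and it was 0.16 without KO replicate 3. Itgb4 had 89.7, 96.0 and 98.7 CPM in WT and 90.3, 113 and 273 CPM in KO at 1 week. Again KO replicate 3 was the high library, KO replicate 2 stood slightly above WT and KO replicate 1 within it. For Itgb4 the log2 fold change was 0.76 (SE 0.44, adjusted p 0.433 in edgeR), and 0.08 without KO replicate 3. In that library 2 further facts went along with these levels, and their part in the result was not tested. The keratin Krt14, 1 of 6 basal urothelium markers, was chosen after its values were seen. It was at 2.18, 43.4 and 181 CPM in the 3 KO libraries and at 0.476, 0.574 and 2.74 CPM in WT. The summed CPM of all 6 markers, Krt14 included, was 3511, 7203 and 2120.0 in KO, lowest in replicate 3, against 4781, 4527 and 3535 in WT. Of the 6 markers, 2 had positive and 4 negative log2 fold changes at 1 week.

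At 1 month Itga6 had 211, 258 and 129 CPM in WT and 238, 152 and 103 CPM in KO. The genotypes overlapped, and replicate 3, the only library of batch 3 in each genotype, was the lowest in both. In the fit the difference was -0.28 (SE 0.22, adjusted p 0.491 in edgeR), with differences of -0.30 within batch 2 and -0.32 within batch 3. Itgb4 had 159.7, 137 and 87.7 CPM in WT and 124, 96.8 and 80.8 CPM in KO. It overlapped in the same way, with replicate 3 lowest in each genotype. Its fitted difference was -0.31 (SE 0.20, adjusted p 0.387 in edgeR), with -0.43 within batch 2 and -0.12 within batch 3.

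The levels of these subunits were positively correlated over the 12 libraries, less closely without the 2 farthest ones. The ratio of Itga6 to Itgb4 counts stayed between 1.27 and 2.67 over the 12 libraries. On log2 CPM their Pearson correlation was 0.885 over 12 libraries (permutation p 0.00035, adjusted over the 21 pairs of members 0.00735), and Spearman's rho was 0.783 (permutation p 0.00399, adjusted 0.0609). The permutations ignored group and batch. Differences of time, batch, genotype and, in part, sex therefore also enter these p-values and those of the other pairs. Without the KO replicate 3 libraries of 1 week and 1 month, the 2 farthest from the median of Itga6, r was 0.569. Within the 6 libraries of 1 week r was 0.969, which includes the high KO library, and batches 2 and 3 hold too few libraries for a value. Of the other 20 pairs, Lama3 with Dst and Itga6 with Dst had an adjusted permutation p under 0.05 for Pearson's r (0.0443 for each) and none had for Spearman's rho. Itga6 with Dst had r 0.703 over 12 libraries and 0.499 without the 2 farthest. Lama3 separated the times without overlap, so for Lama3 with Dst the value within the 6 libraries of 1 week is given, which was 0.453.

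**Figure D2:**
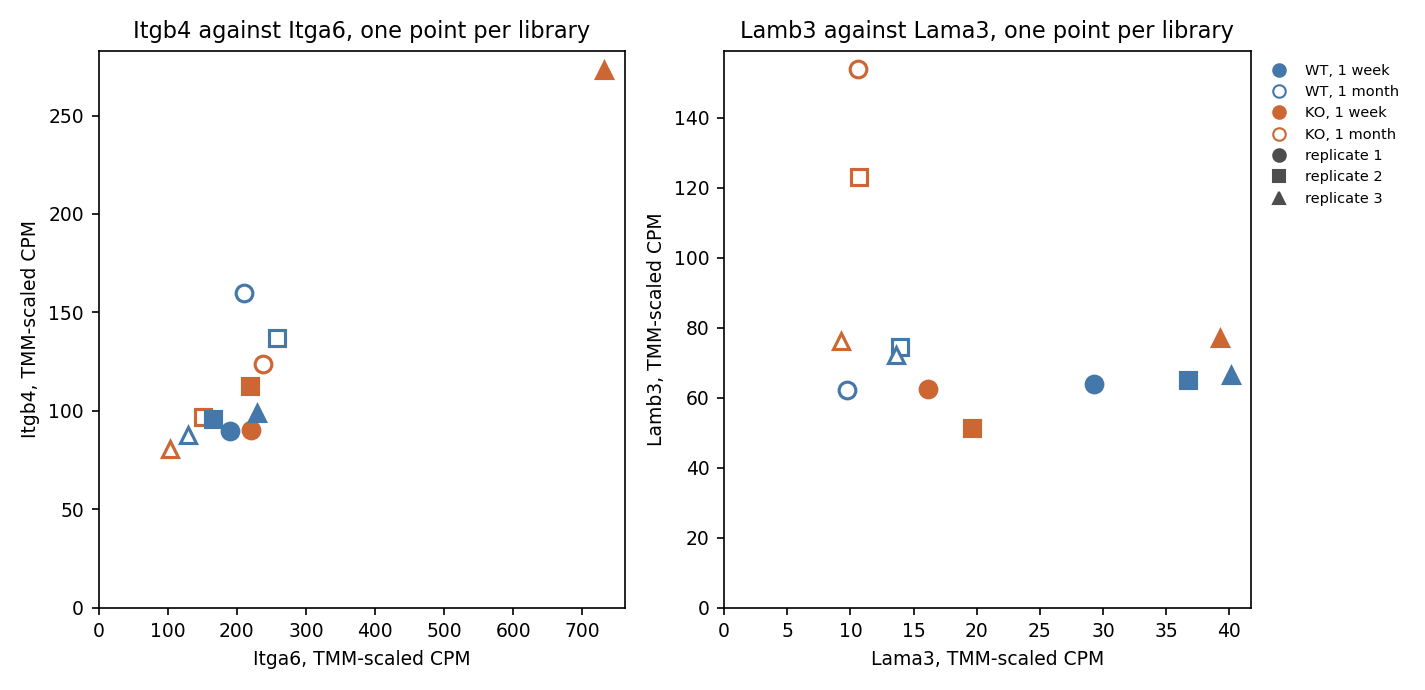
TMM-scaled CPM of Itgb4 against Itga6 (left) and of Lamb3 against Lama3 (right), a point for each of the 12 libraries, filled at 1 week and open at 1 month. Itgb4 runs up with Itga6, with KO replicate 3 of 1 week far to the upper right, and in the Lamb3 and Lama3 plot all libraries of 1 month lie left of those of 1 week, with KO replicates 1 and 2 of 1 month at the top (154 and 123 CPM of Lamb3).

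Itga3 and Itgb1 encode the integrin pair that binds the same laminin outside hemidesmosomes. Itga3 had 34.0, 25.1 and 38.8 CPM in WT and 41.8, 51.9 and 89.4 CPM in KO at 1 week. All KO libraries lay above all WT libraries, replicate 3 the furthest. For Itga3 the log2 fold change was 0.92 (SE 0.37, adjusted p 0.295 in edgeR) with an unadjusted p of 0.0385, and it was 0.50 without KO replicate 3. At 1 month Itga3 had 37.3, 40.2 and 30.4 CPM in WT and 59.9, 41.8 and 41.0 CPM in KO. The groups again did not overlap, although KO replicates 2 and 3 exceeded the highest WT library by little. At that time its difference was 0.41 (SE 0.22, adjusted p 0.295 in edgeR), with 0.37 within batch 2 and 0.43 within batch 3. KO lay above WT without overlap at both times for Itga3 and for 0.797% of the 11919 genes tested at both, and Itga3 did so with TMM, with DESeq2's size factors and with library totals alone.

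Itgb1, the widely used beta subunit, had 281, 282 and 249 CPM in WT and 319, 569 and 274 CPM in KO at 1 week. KO replicate 2 was far above the rest, and KO replicate 3 lay between the WT libraries. On the log2 scale KO minus WT was 0.54 (SE 0.34, adjusted p 0.470 in edgeR), and it was 0.13 without KO replicate 2 and 0.70 without KO replicate 3. At 1 month it had 95.5, 144 and 184 CPM in WT and 160.0, 200.4 and 252 CPM in KO. Within each batch the KO libraries were above the WT libraries, but across batches KO replicate 1 fell below WT replicate 3. The log2 fold change was 0.55 (SE 0.22, adjusted p 0.179 in edgeR) with an unadjusted p of 0.0273, and the differences were 0.61 within batch 2 and 0.45 within batch 3. The sum of 5 endothelial markers went the same way (Pecam1, Cdh5, Kdr, Emcn and Vwf, none at 0 in any library). It was 151 to 179 CPM in WT and 250.5 to 434 CPM in KO at 1 week. At 1 month it was 156 to 191 CPM in WT and 201 to 355 CPM in KO. All 5 markers had positive log2 fold changes at 1 week, and at 1 month 4 had positive ones and 1 a negative one (-0.15). Pecam1, an adhesion molecule of endothelium, had 1.33 (SE 0.37, adjusted p 0.172 in edgeR) at 1 week and 1.31 (SE 0.33, adjusted p 0.0620 in edgeR) at 1 month, and the endothelial cadherin Cdh5 had 0.70 (SE 0.31, adjusted p 0.340 in edgeR) and 0.35 (SE 0.27, adjusted p 0.480 in edgeR). The part of endothelial cells in the Itga3 and Itgb1 differences was not tested, and in bulk tissue a shift in the number of cells of a type and a shift in RNA per cell cannot be told apart.

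Lama3 and Lamb3 encode the alpha and beta chains of the hemidesmosome laminin. Lama3 had 29.3, 36.7 and 40.2 CPM in WT and 16.2, 19.6 and 39.3 CPM in KO at 1 week. KO replicates 1 and 2 were below all WT libraries, whereas KO replicate 3 was at the upper end of WT. The log2 fold change was -0.48 (SE 0.39, adjusted p 0.568 in edgeR). Without KO replicate 3 it was -1.0 (SE 0.24, edgeR adjusted p 0.0767, 2 KO and 3 WT libraries), larger in size but not past the threshold. At 1 month Lama3 had 9.69, 13.9 and 13.6 CPM in WT and 10.6, 10.7 and 9.27 CPM in KO. KO replicates 1 and 2 fell inside the WT range and KO replicate 3 just under it. KO minus WT was -0.28 (SE 0.29, adjusted p 0.610 in edgeR), with -0.12 within batch 2 and -0.54 within batch 3.

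Lamb3 behaved otherwise. At 1 week it had 64.0, 65.2 and 66.4 CPM in WT and 62.6, 51.4 and 77.1 CPM in KO. WT libraries were nearly equal and KO scattered to both sides, and KO minus WT was -0.01 (SE 0.27, adjusted p 0.991 in edgeR), or -0.22 without KO replicate 3. At 1 month it had 62.2, 74.4 and 72.1 CPM in WT and 154, 123 and 76.1 CPM in KO. KO replicates 1 and 2 were well above WT, whereas KO replicate 3 exceeded the highest WT library by little. The log2 fold change was 0.72 (SE 0.24, adjusted p 0.122 in edgeR) with an unadjusted p of 0.0111. It was 1.01 within batch 2 and 0.08 within batch 3, so the difference rested on batch 2. Without WT replicate 3 or without KO replicate 3 of 1 month, which each leave batch 2 alone to compare the genotypes, it was 1.05 with edgeR adjusted p-values of 0.0109 and 0.0110, past the threshold. Those 2 fits called 1522 of 12348 and 1513 of 12351 genes, against 269 of 12139 in the main fit. Scaling by library totals alone also brought Lamb3 past the threshold (0.93, edgeR adjusted p 0.0450), but that scaling moved the median of all genes from -0.01 to 0.22. Without a filter on low counts Lamb3 had 0.76 (edgeR adjusted p 0.0180). The fit with library totals called 561 of 12139 genes and the unfiltered fit 1276 of 17990.

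The counts of the 2 chains were also set against each other within each library. The ratio below was picked with its values in view and carries no test. Counts of Lamb3 over counts of Lama3 were 2.19, 1.77 and 1.65 in WT and 3.87, 2.62 and 1.96 in KO at 1 week. At 1 month the WT libraries had ratios of 6.41, 5.35 and 5.31, and the KO libraries 14.5, 11.5 and 8.21. The genotypes overlapped at 1 week and not at 1 month, with every KO library above every WT library. A ratio shows unequal levels and not which chain differed. On the log2 scale Lamb3 differed by 1.01 and Lama3 by -0.12 within batch 2. Within batch 3 Lamb3 differed by 0.08 and Lama3 by -0.54.

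Dst encodes the plakin that links the integrin to keratin filaments in epithelia, with other isoforms in nerve and muscle. It had 465, 380.3 and 804 CPM in WT and 577, 267 and 724 CPM in KO at 1 week. Both genotypes spread widely, and the highest library was WT and the lowest KO. KO minus WT was -0.05 (SE 0.46, adjusted p 0.971 in edgeR), and -0.41 without KO replicate 3. At 1 month it had 330.0, 315 and 181 CPM in WT and 279, 232 and 153 CPM in KO. The groups overlapped, with replicate 3 lowest in each genotype, and the log2 fold change was -0.30 (SE 0.20, adjusted p 0.406 in edgeR), with -0.34 within batch 2 and -0.24 within batch 3.

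The other structural parts of the complex are the collagen Col17a1, a transmembrane protein of the hemidesmosome, the linker Plec and the tetraspanin Cd151, which binds laminin-binding integrins. None of these 3 passed the test at either time in edgeR. At an unadjusted p under 0.05 were 0 at 1 week and 1 at 1 month (Col17a1), where 15.5% and 21.5% of all genes had one. Their median log2 fold change was 0.32 at 1 week and -0.10 at 1 month. Col17a1 had 4.85, 13.0 and 7.76 CPM in WT and 2.31, 6.42 and 2.58 CPM in KO at 1 month, and a difference of -1.21 (SE 0.48, adjusted p 0.174 in edgeR). The groups overlapped, and the differences were -0.99 within batch 2 and -1.49 within batch 3. At 1 week Plec had 418, 357 and 475 CPM in WT and 499.6, 554 and 1156 CPM in KO. KO lay above WT without overlap, as it did for 13.3% of all genes, and the difference was 0.84 (SE 0.39, adjusted p 0.356 in edgeR). Without KO replicate 3 that value was 0.32, and Col17a1 went from 0.32 to -0.70. The single library that carried the high Itga6 and Itgb4 levels thus also set the sign of Col17a1 at 1 week.

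**Figure D3:**
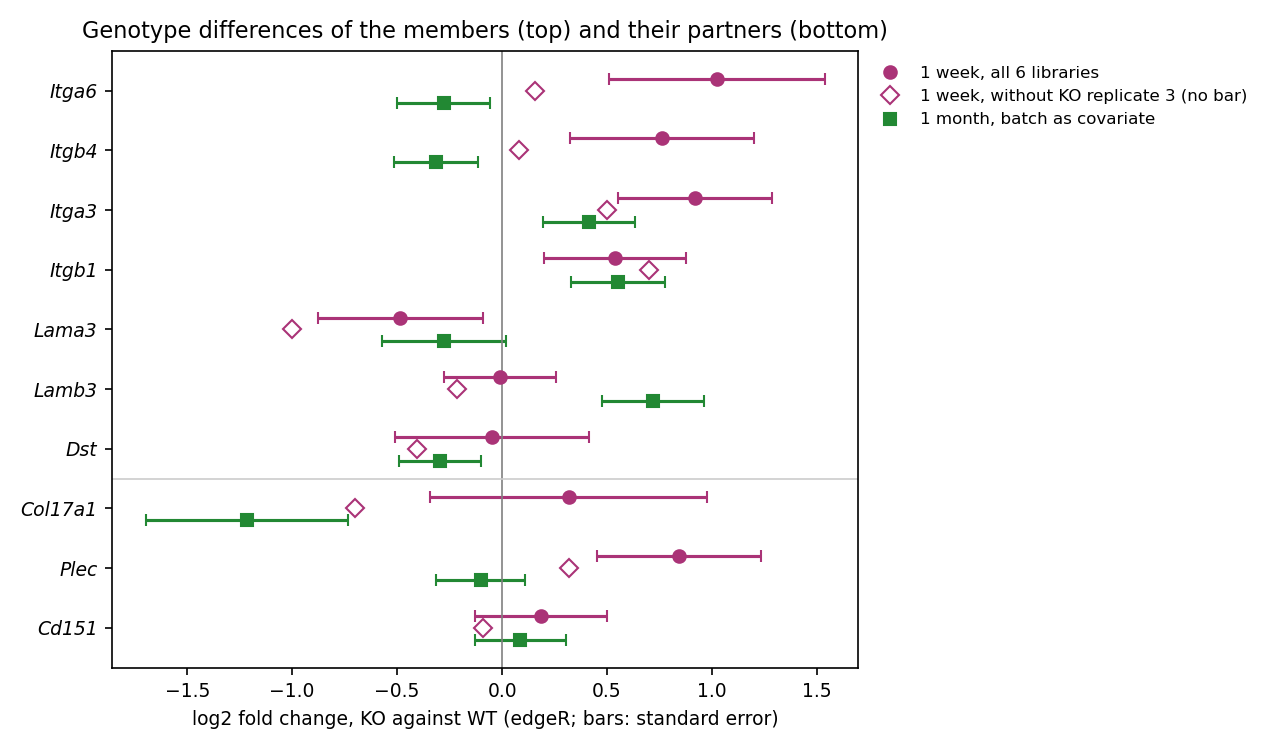
Log2 fold change of KO against WT (x axis) for the 7 genes and, below the grey line, 3 partners. Filled points with bars give edgeR's estimate and its standard error at 1 week (circles) and 1 month (squares), and open diamonds give 1 week without KO replicate 3. At 1 week Itga6 and Itgb4 move from 1.02 and 0.76 to 0.16 and 0.08, while Itga3 and Itgb1 keep positive values at both times.

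The genotype differences of both times were set against each other by an interaction term over the 12 libraries. It called 0 of the 7 members in edgeR, with 0 at an unadjusted p under 0.05, where edgeR called 0% of all genes and had 19.9% of them at an unadjusted p under 0.05. DESeq2 called 0 of 7 against 6.99% of all genes, with 2 members at an unadjusted p under 0.05 where 24% of all genes had one. Itga6 had the lowest member value, -1.29 (SE 0.61, edgeR adjusted p 0.260), followed by Itgb4 at -1.07 (SE 0.51, edgeR adjusted p 0.269). For Lamb3 it was 0.74 (SE 0.38, edgeR adjusted p 0.288), and for Itgb1, with nearly equal differences at both times, 0.03 (SE 0.42, edgeR adjusted p 0.979). A p that misses the threshold does not show that the differences of both times were equal.

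Mean levels of each gene over the 4 groups are given as CPM ± SD (n = 3), without a test, because time and sequencing batch cannot be told apart. Lama3 fell into the clearest order, with 35.4 ± 5.56 in WT and 25.0 ± 12.5 in KO at 1 week, then 12.4 ± 2.34 in WT and 10.2 ± 0.81 in KO at 1 month. No library of 1 month reached the lowest of 1 week, and within each time the genotypes overlapped. Itgb1 ran from 388 ± 159 in KO and 271 ± 18.8 in WT at 1 week to 204 ± 46.1 in KO and 141 ± 44.3 in WT at 1 month, each neighbouring pair overlapping. Dst ran from 549.8 ± 224 in WT and 523 ± 233 in KO at 1 week to 276 ± 82.1 in WT and 221 ± 63.8 in KO at 1 month, again with overlap between neighbours. Itga3 was ordered by genotype, with 61.0 ± 25.1 and 47.6 ± 10.7 in KO and 36.0 ± 5.03 and 32.7 ± 6.96 in WT. Its only break without overlap lay between the KO and the WT groups. Lamb3 had 118 ± 39.2 in KO at 1 month, and the other 3 groups, at 69.6 ± 6.51, 65.2 ± 1.18 and 63.7 ± 12.9, overlapped. Itga6 and Itgb4 had their highest means in KO at 1 week, at 390.4 ± 295 and 159 ± 99.8, where the SD reflects replicate 3, and all their neighbouring groups overlapped.

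Likeness of pattern was measured as Pearson's r of log2 CPM across the 12 libraries over 13115 genes outside the members, as a description. Itga6 was most like Map3k8 (r 0.975) and Znhit1 (r 0.968), and Itgb4 was most like Capg (r 0.971) and Paox (r 0.969). All 4 of these genes were highest in KO replicate 3 of 1 week, as were Itga6 and Itgb4, and without it, an alternative chosen after the data were seen, the r values over 11 libraries were 0.923, 0.906, 0.947 and 0.908. The closest member to Itga6 was Itgb4, and 167 genes outside the members had a higher r with Itga6 than Itgb4 did. Itga3 was most like Flt1 (r 0.930, and 0.866 without that library) and Gstm5 (r 0.916, and 0.822 without it), and Itgb1 most like Cltc (r 0.945) and Epc1 (r 0.938). Lama3 was most like Magohb (r 0.972) and Srrm1 (r 0.963), and Dst most like Map3k4 and Ccz1 (r 0.967 for each). Lamb3 had the least close matches, Zfp945 (r 0.896) and Tcea3 (r 0.884), and its closest member was Itga3 with r 0.314. All libraries of a group share a time, a batch and, in part, a sex, which such correlations also carry.

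The members were then read beside the other genes of cell and matrix adhesion. Of 8 further laminin chains, edgeR called 0 at either time. At 1 week 5 were at an unadjusted p under 0.05, with a median log2 fold change of 1.19 over the 8, and at 1 month 2 were, with a median of 0.00. KO lay above WT without overlap for 5 of them at 1 week and below for 1, Lama5, where 13.3% and 13.4% of all genes did. Here and for the other lists, the share of all genes at an unadjusted p under 0.05 in edgeR was 15.5% at 1 week and 21.5% at 1 month. Lama5, the alpha chain of a laminin common in mature epithelial basement membranes, had 66.4, 97.9 and 79.0 CPM in WT and 33.1, 45.9 and 32.7 CPM in KO at 1 week, a difference of -1.10 (SE 0.29, adjusted p 0.159 in edgeR). Lamb1, the beta chain of another laminin of basement membranes, had 108, 93.0 and 74.1 CPM in WT and 118, 249.8 and 168 CPM in KO, a difference of 0.98 (SE 0.34, adjusted p 0.246 in edgeR). At 1 week, then, most other laminin chains had positive values while Lama3 and Lamb3 did not, a difference that was not tested. Without KO replicate 3 of 1 week, an alternative chosen after the data were seen, edgeR called 3 of the 8, all higher in KO: Lama2, Lama4 and Lamc1, named here for that reason. In that fit it called 0 of the 7 members, where it called 2.45% of all genes, 1.68% higher and 0.766% lower. At an unadjusted p under 0.05 it had 2 of the 7, where 20.4% of all genes had one.

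Of 14 further integrin subunits, 13 could be tested at 1 week and 12 at 1 month. edgeR called 0 at both times, with 7 at an unadjusted p under 0.05 and a median of 0.94 at 1 week, and 2 and a median of -0.09 at 1 month. Itga2, an alpha subunit for collagen and laminin, had log2 fold changes of 0.24 (SE 0.38, adjusted p 0.776 in edgeR) at 1 week and -1.01 (SE 0.33, adjusted p 0.117 in edgeR) at 1 month. Itgav, the alpha subunit of vitronectin and fibronectin receptors, had 24.5, 23.6 and 27.3 CPM in WT and 35.7, 40.9 and 154 CPM in KO at 1 week, a difference of 1.63 (SE 0.58, adjusted p 0.252 in edgeR), with KO replicate 3 again far above the rest. Without that library 1 of the 13 was called, Itgb6, which was lower in KO, where 2.45% of all genes were called.

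Of 13 basement membrane genes, edgeR called 0 at both times, with 5 at an unadjusted p under 0.05 and a median of 1.03 at 1 week, and 4 and a median of -0.06 at 1 month. Col4a1, an alpha chain of the network collagen of basement membranes, had 51.2, 61.5 and 50.5 CPM in WT and 363, 550.0 and 914 CPM in KO at 1 week. All KO libraries were several times WT, and the difference was 3.50 (SE 0.41, adjusted p 0.0506 in edgeR). Col4a2, the chain that pairs with it, had 3.10 (SE 0.45, adjusted p 0.0927 in edgeR). Without KO replicate 3 edgeR called 3 of the 13, all higher in KO, where it called 2.45% of all genes. These were Col4a1, Col4a2 and Nid1. At 1 month Col4a1 had -0.06 (SE 0.33, adjusted p 0.938 in edgeR) and Col4a2 0.47 (SE 0.26, adjusted p 0.312 in edgeR). Of 16 cytoplasmic adaptors of integrins, 0 were called at either time, with medians of 0.14 and 0.28 and with 2 and 5 at an unadjusted p under 0.05. Tln1, which activates integrins from inside the cell, had 0.62 (SE 0.25, adjusted p 0.297 in edgeR) at 1 week and -0.14 (SE 0.22, adjusted p 0.737 in edgeR) at 1 month, and Ilk, a scaffold at integrin tails, had 0.22 (SE 0.26, adjusted p 0.693 in edgeR) and -0.06 (SE 0.23, adjusted p 0.904 in edgeR).

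**Figure D4:**
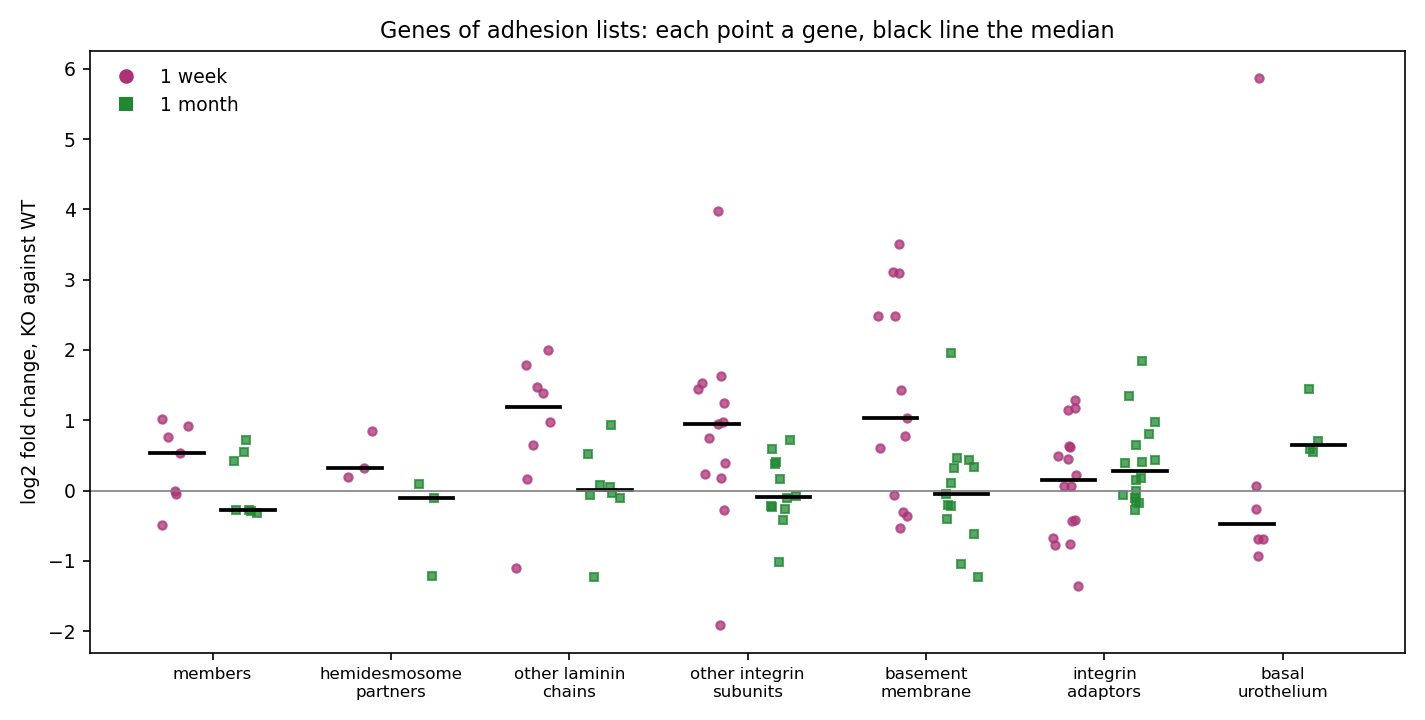
Log2 fold change of KO against WT (y axis) for the genes of 7 lists (x axis), a point for each gene tested, with the median as a black line, at 1 week (circles) and 1 month (squares). At 1 week the medians of other laminin chains, other integrin subunits and basement membrane genes lie at 1.19, 0.94 and 1.03, above that of the 7 members at 0.54, and at 1 month they lie at 0.00, -0.09 and -0.06.

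The basal layer, to which hemidesmosomes belong, was followed by 6 markers. At 1 week 4 of them had negative log2 fold changes and 2 positive ones, with a median of -0.47. At that time edgeR called 0 of them, and 3 were at an unadjusted p under 0.05. In KO 2 of them lay below WT without overlap, as did 13.4% of all genes. At 1 month the summed CPM of Krt5, Trp63, Krt14, Krt15, Cdh3 and Shh was 2626, 3508 and 3988 in WT and 4072, 5106 and 6421 in KO, without overlap, and Cdh3 was at 0 in WT replicate 2 of that time. Krt15, another basal keratin, made up most of these sums, with 2464, 3239.9 and 3382 CPM in WT and 3346, 4354 and 5663 CPM in KO. Of the 4 basal markers tested at 1 month, 0 passed in edgeR, 2 were at an unadjusted p under 0.05, and the median log2 fold change was 0.65. The basal keratin Krt5 had 119, 215 and 493 CPM in WT and 628, 636 and 672 CPM in KO at 1 month, a difference of 1.44 (SE 0.34, adjusted p 0.0505 in edgeR), and Trp63, the transcription factor of basal cells, had 15.8, 22.6 and 33.7 CPM in WT and 37.1, 46.4 and 31.0 CPM in KO, a difference of 0.71 (SE 0.30, adjusted p 0.194 in edgeR). Within batch 2 the differences of Krt5, Krt15, Trp63 and Shh were 1.98, 0.43, 1.13 and 1.17, and within batch 3 they were 0.45, 0.74, -0.12 and -0.57. Trp63 and Shh were thus lower in KO in batch 3. Of 6 luminal markers, edgeR called 1 at 1 month, where it called 2.22% of all genes. This was Krt20, a keratin of the surface cells, which fell by 1.76 on the log2 scale (SE 0.25, edgeR adjusted p 0.00601). Upk2 and Upk1b, uroplakins of the surface membrane, had differences of -0.59 and -0.02 on that scale. The part of basal cell share in the members' values was not tested.

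Markers of other cells that a peeled epithelium can hold also differed. The 5 markers of dividing cells were Mki67, Top2a, Cdk1, Ccnb1 and Birc5, none at 0 at 1 week. At that time all 5 lay above WT in every KO library, as did 13.3% of all genes. Their sums were 15.5 to 16.8 CPM in WT and 95.8, 640.5 and 478 CPM in KO. Without KO replicate 3 of 1 week edgeR called all 5, beside 2.45% of all genes. With all 6 libraries it called 0 of them, beside 0.0627% of all genes. Mki67, a protein of cycling cells, had 5.66 (SE 0.79, adjusted p 0.0844 in edgeR), and the topoisomerase Top2a 4.28 (SE 0.66, adjusted p 0.0927 in edgeR). Smooth muscle markers summed to 108 to 284 CPM in WT and 334, 1067 and 915 CPM in KO at 1 week, and 7 fibroblast markers to 3339 to 5479.5 CPM in WT and 7222, 9751 and 4428 CPM in KO. Of the 6 smooth muscle markers 5 had positive log2 fold changes and 1 a negative one (-1.14), while all 7 fibroblast markers had positive ones. Myh11 and Acta2, muscle myosin and actin, had 1.58 and 2.36 on the log2 scale (adjusted p 0.233 and 0.315 in edgeR). The collagen chains Col1a1 and Col1a2 had 1.41 and 0.24 (adjusted p 0.182 and 0.826 in edgeR). At 1 week these markers and the other laminin, collagen and integrin genes mostly had positive differences, but they did not run together library by library. The fibroblast sum was lowest in KO replicate 3 and within the WT range there, whereas Col4a1 and Itgav were highest in that library. The part of these cells was not tested. The 6 leukocyte markers in the tables summed to 139 to 242 CPM in WT and 275, 264 and 585 CPM in KO at 1 week, where Ptprc, the common leukocyte antigen, had 0.87 (SE 0.34, adjusted p 0.288 in edgeR). At 1 month their sums were 603 to 1335 CPM in WT and 325 to 393 CPM in KO. edgeR called 3 of the 5 tested, where it called 2.22% of all genes. These were Csf1r, C1qa and Cd74, genes of macrophages and antigen-presenting cells. They fell by 1.13, 1.95 and 1.76 on the log2 scale (edgeR adjusted p 0.0429, 0.0121 and 0.00344). The Csf1r call was lost without any single one of replicates 1 and 2 of either genotype (values from -1.07 to -0.93) and the C1qa call without KO replicate 1 (-1.67) or 2 (-1.89). Of the fibroblast markers it called Pdgfrb, which rose by 1.30 (SE 0.24, edgeR adjusted p 0.0218) at 1 month, while their sums were 9440.4 to 13983 CPM in WT and 7869 to 9739.7 CPM in KO. That call was also lost without any single one of replicates 1 and 2 of either genotype, with values from 1.18 to 1.36.

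**Figure D5:**
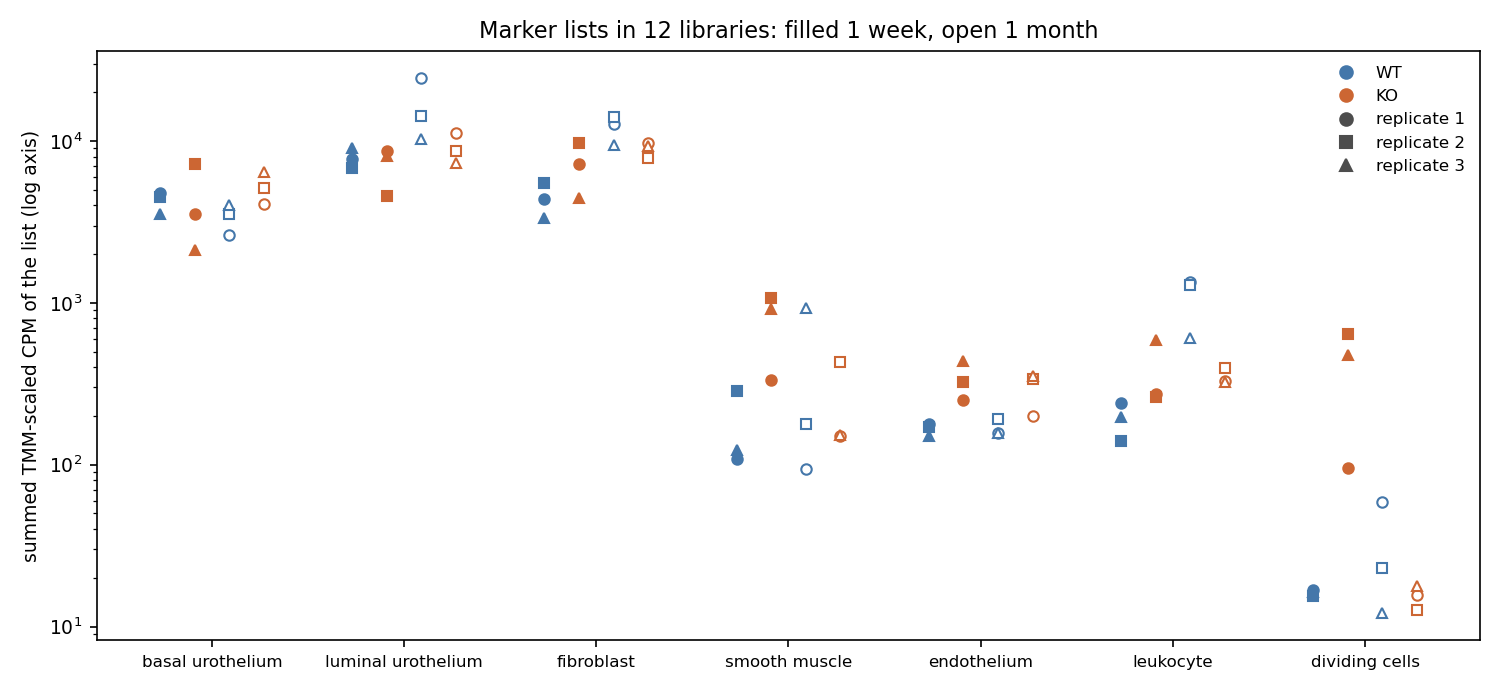
Summed TMM-scaled CPM of 7 marker lists (y axis, log scale) in the 12 libraries, filled at 1 week and open at 1 month, with colours for genotype and symbols for replicate. Sums for dividing cells were 95.8 to 640.5 CPM in KO and 15.5 to 16.8 CPM in WT at 1 week, and leukocyte sums were lower in every KO library than in every WT library at 1 month.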

How the data were processed

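RNA was measured in 12 libraries of peeled urothelium, which were made with a QuantSeq FWD kit that reads the 3′ ends of transcripts in the sense direction, per the labels' protocols. The authors deposited raw counts per gene symbol, in a table for each time. The submitters' processing notes name Bowtie, TopHat, HTSeq and DESeq2, without versions or roles, and the build mm10, and the gene annotation is not given in the sources used here. Both tables list 23337 symbols, and 0 columns were left without a library. WT replicate 3 of 1 month was matched through its library name, since its title carries another number. Replicates were numbered in accession order. All libraries of 1 week are in sequencing batch 1. At 1 month, replicates 1 and 2 of each genotype are in batch 2 and replicate 3 in batch 3.

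Counts were tested with edgeR 4.0.16 (R 4.3.3; quasi-likelihood, robust, TMM scaling, default filter, two-sided, Benjamini-Hochberg adjustment over all genes tested, threshold 0.05). The 6 libraries of a time were fitted on their own, adding a batch term at 1 month, and the interaction used all 12 libraries and the batch. Standard errors are the absolute log2 fold change over the square root of F. Log2 CPM used a prior count of 2, and correlations 100000 permutations, two-sided. Replicate libraries differed by more than sampling noise in every pair (chi-square per degree of freedom 8.59 to 185), so each was counted once. The fits were also tested on simulated data. There they missed all of the smaller changes at 1 week and in the interaction, and most of the smallest ones at 1 month. A missed threshold in any of these fits does not show equal levels.

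Genes named are the 7 members, 3 partners, Stag2, the first 2 of each other list, every called gene of a list and the 2 genes most like each member. Other names were chosen after values were seen, and some listed genes are not reported here. The members and lists were chosen with earlier results of these data known. Alternatives were other scaling (with limma 3.58.1 and DESeq2 1.42.0), other filters, dispersions without the robust option, DESeq2, other sets of libraries, no batch covariate and a 12-library fit. Promoter windows are from RefSeq and gene positions from GENCODE.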

Additional observations from a re-analysis of the deposited data

How the results depend on the processing

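At 1 week and in the interaction no member was called by any alternative run. At 1 month the count of called members went from 0 to 1 (Lamb3) with library totals only, without a filter on low counts and within batch 2 only, and leaving out single libraries gave 0 to 1. Among log2 fold changes of named genes, 1026 recalculated values kept their direction and call, 62 became calls, 22 lost a call and 59 changed sign. With library totals only, Cd74 was -0.043 at 1 week, and at 1 month Plec was 0.12, Lamb1 0.20, Col4a1 0.17, Tln1 0.083, Ilk 0.16, Upk1b 0.21 and Col1a2 0.087, and Dst in the interaction 0.052. Without a filter, Cd74 was -0.020 at 1 week and Lamb1 0.015 and Upk1b 0.026 at 1 month. Within batch 2, Cd151 was -0.025 and Upk1b 0.19, and without the batch covariate Myh11 was -0.32 and Acta2 -0.52. The interaction of Itgb1 was -0.000124 with DESeq2's size factors and -0.000721 in DESeq2. Leaving out single libraries at 1 week, Dst ran from -0.41 to 0.28, Lamb3 from -0.22 to 0.096, Col17a1 from -0.70 to 0.74, Cd151 from -0.089 to 0.37, Itga2 from -0.036 to 0.46, Upk2 from -0.35 to 0.39, Col1a2 from -0.31 to 0.56, Pdgfrb from -0.32 to 0.61 and Cd74 from -0.34 to 0.26. At 1 month Cd151 ran from -0.032 to 0.25, Col4a1 from -0.64 to 0.24, Lamb1 from -0.31 to 0.25, Tln1 from -0.40 to 0.024, Ilk from -0.21 to 0.092, Upk1b from -0.19 to 0.18, Col1a2 from -0.35 to 0.17, Myh11 from -0.65 to 1.07, Acta2 from -0.70 to 1.39 and Top2a from -1.14 to 0.041. In the interaction Itgb1 ran from -0.17 to 0.44 and Dst from -0.60 to 0.078. The cause was not tested.

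Over all genes, edgeR called 8 at 1 week, against 62 without a filter, 957 with DESeq2, 553 in the 12-library fit and 0 to 320 without single libraries, the 320 without KO replicate 3. At 1 month it called 269, against 561 with library totals only (456 higher), 1276 without a filter, 781 with DESeq2, 1474 within batch 2, 0 without the batch covariate and in the 12-library fit, and 45 to 1522 without single libraries, the 1522 and 1513 without WT or KO replicate 3. The interaction called 0, against 137 without a filter, 917 with DESeq2 and 0 to 440 without single libraries. No paired analysis was possible because the labels give no replicate numbers, and those used follow accession order.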
